A study of Homo sapiens with 4 samples.

Results

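Glycolysis enzymes were followed in SAS cells, a human oral squamous carcinoma line, after knockdown of STAU1. The 10 genes, GAPDH, ENO1, LDHA, PKM, PGK1, ALDOA, HK2, PFKP, TPI1 and PGAM1, were chosen by name, and each symbol matched 1 Ensembl identifier among the 67008 genes of the count table. The cells had been infected with a virus carrying an shRNA, directed at luciferase in 2 libraries (Ctrl) and at STAU1 in the other 2 (shSTAU1), and their RNA had been sequenced. The genotype of both groups is labelled WT, and both carry an shRNA. A single shRNA label stands for each group, and no source used here says whether the 2 libraries of a group came from separate cultures, so the p-values measure only the spread between these libraries. The labels also name the mouse line C3H 10T1/2 as the source, whereas the organism is given as human and the growth protocol as that of SAS cells. All 8 squamous epithelial markers checked (keratins, TP63, CDH1, EPCAM and DSP) were above 1 CPM in every library, where CPM are read counts relative to the scaled total of the library.

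Glycolysis converts glucose to pyruvate in the cytosol. Its first steps spend ATP to phosphorylate and cleave the sugar, the later steps return ATP and NADH, and lactate dehydrogenase regenerates NAD+ by reducing pyruvate to lactate. Tumour cells often run this route fast even when oxygen is present, and many of its genes carry binding sites for the hypoxia-inducible factor HIF1 and for MYC. STAU1 is a double-stranded RNA-binding protein that takes part in mRNA localization, translation and decay.

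ACGTG is a common form of the core of the element bound by HIF1, and these letters also lie inside the CACGTG box bound by MYC with MAX. In the 300 bases from 250 before to 50 after each transcription start listed by RefSeq (GRCh38.p14), ACGTG was found on either strand in 10 of the 18 promoters of the 10 enzyme genes (55.6%), against 21.4% of the 35116 promoters in the same table. It was present for 7 of the 10 genes in at least 1 promoter, against 24.9% of all genes in the table, and ENO1, PKM and PGAM1 had it in none. Other forms of the core, and sites outside these 300 bases, were not searched. The match nearest to a start is shown for each of the 7 genes because the genes of this pathway are compared as a group. Each window is written 5′ to 3′ on the plus strand, and the capitals mark ACGTG or its reverse complement CACGT.
HK2, chr2:74834069-74834093: tgggcgtgcgCACGTcactgatccg
PFKP, chr10:3069040-3069064: acgagcgcctACGTGatgcccggcc
ALDOA, chr16:30064376-30064400: cagggaggccACGTGatccgagtcc
TPI1, chr12:6868078-6868102: tgcgccgccgCACGTagccccagac
GAPDH, chr12:6535174-6535198: ctgcggggtcACGTGtcgcagagga
PGK1, chrX:78104266-78104290: ctccggagcgCACGTcggcagtcgg
LDHA, chr11:18394480-18394504: tgggttcccgCACGTccgccggccc
These matches are a description of the letters only, since binding was not measured.

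The libraries held 32206655 to 36301574 counts. STAU1 itself was at 249 and 251 CPM in the Ctrl libraries and at 41.6 and 41.5 CPM in the shSTAU1 libraries, or 16.6% of Ctrl (log2 fold change −2.59, SE 0.13, adjusted p = 0.00103 by edgeR's quasi-likelihood test with Benjamini-Hochberg adjustment). Of 14303 genes with enough counts to be tested, 372 passed an adjusted p of 0.05 (2.6%), 161 of them higher (1.13%) and 211 lower (1.48%) in shSTAU1 cells. An exact permutation test of 2 libraries against 2 cannot go below a two-sided p of 0.333, so no single value was tested that way.

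Most of the enzymes had higher values in the shSTAU1 libraries, by amounts that did not pass the threshold in edgeR without a replicate block. None of the 9 enzymes tested had an adjusted p under 0.05 in that fit, where 2.6% of all genes did. At an unadjusted p of 0.05, PKM, TPI1 and ENO1 were higher and none was lower, where 12.9% of all genes tested were higher at that level. Both shSTAU1 libraries were above both Ctrl libraries for 6 of the 9 enzymes (TPI1, GAPDH, PGK1, PGAM1, ENO1 and PKM), against 28.5% of all genes tested. Both were below for 2 (HK2 and ALDOA), against 28% of all genes tested, and PFKP overlapped. The median log2 fold change was 0.27 over the 9 enzymes and 0.30 over the 8 without ALDOA, which had few reads, against 0.0059 over all genes tested. Abundant genes in general also had values above 0. The 2226 genes with at least as many reads (CPM, not divided by length) as PGAM1 had a median log2 fold change of 0.11, 62.3% of them were positive, and 42.7% had both shSTAU1 libraries above both Ctrl libraries. Of those genes 2.83% passed the threshold as higher. By DESeq2, 2 enzymes passed (PKM and TPI1, where 12.2% of genes did), and by limma-voom 0 did (2.54% of genes). With the replicate number as a block in edgeR, 5 passed (GAPDH, ENO1, PKM, PGK1 and TPI1, where 28.6% of genes did).

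**Figure D1:**
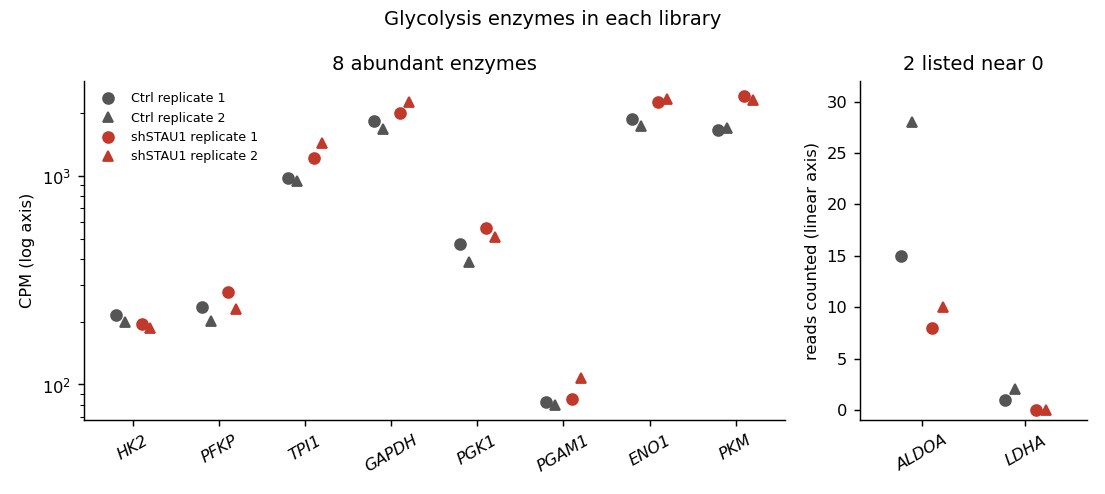
Levels of the 10 glycolysis enzymes in each of the 4 libraries. The left panel gives CPM on a log axis for the 8 abundant enzymes and the right panel gives the reads counted on a linear axis for ALDOA and LDHA; circles are replicate 1 and triangles replicate 2, grey for Ctrl and red for shSTAU1. The red points lie above the grey points for TPI1, GAPDH, PGK1, PGAM1, ENO1 and PKM, overlap for PFKP and lie below for HK2 and ALDOA, while LDHA had at most 2 reads in any library.

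To order the enzymes by level, CPM were divided by the coding length. On this scale (CPM per kb of coding sequence, mean of the Ctrl libraries), GAPDH stood first at 1743 ± 108 (SD, n = 2), followed by ENO1 at 1379 ± 75.4, TPI1 at 1119 ± 21.1 and PKM at 1054 ± 17.3. The genes that followed were PGK1 at 343 ± 48.6, PGAM1 at 107 ± 2.60, PFKP at 92.7 ± 9.53 and HK2 at 75.0 ± 4.18. No neighbours in this order overlapped between the Ctrl libraries. HK2, PFKP and PGAM1 were thus listed far below GAPDH, ENO1, TPI1 and PKM. HK2 and PFKP are only part of their steps, since HK1 was at 192, PFKM at 89.1 and PFKL at 28.2 on this scale. In the shSTAU1 libraries the order of the listed enzymes was the same, but TPI1 (1546 ± 181) and PKM (1479 ± 39.7) overlapped, as did PGAM1 (127 ± 20.7) and PFKP (108 ± 14.4). The libraries had been made with an exome capture kit, so a gene's level also carries how well its exons are captured, and the order is that of captured reads.

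Hexokinase 2, encoded by HK2 (GRCh38 chr2:74833981-74893359, plus strand), phosphorylates glucose at the entry to the pathway. Its levels were 214 and 198 CPM in the Ctrl libraries and 195 and 185 CPM in the shSTAU1 libraries. The groups did not overlap, but the gap between them was smaller than that between the libraries of either group. The log2 fold change was −0.12 (SE 0.12, 95% interval −0.40 to 0.17, adjusted p = 0.597), and it was −0.06 without Ctrl replicate 1 and −0.05 with a length and GC correction.

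Phosphofructokinase, the main control point of the pathway, is represented by its platelet-type subunit PFKP (chr10:3066333-3137712, plus strand). PFKP was at 234 and 202 CPM in the Ctrl libraries and at 278 and 230 CPM in the shSTAU1 libraries. The lower shSTAU1 library lay within the Ctrl range, and the log2 fold change of 0.22 (SE 0.15, 95% interval −0.12 to 0.56) had an adjusted p of 0.389. It was 0.09 without shSTAU1 replicate 1, 0.12 without Ctrl replicate 2 and 0.34 without shSTAU1 replicate 2.

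Triose-phosphate isomerase, TPI1 (chr12:6867119-6870948, plus strand), interconverts the 2 three-carbon products of aldolase. TPI1 was at 973 and 947 CPM in the Ctrl libraries and at 1216 and 1436 CPM in the shSTAU1 libraries. The shSTAU1 mean was 1.38 times the Ctrl mean, and the gap between the groups was larger than that between the shSTAU1 libraries. The log2 fold change was 0.47 (SE 0.13, 95% interval 0.16 to 0.77, unadjusted p = 0.00804, adjusted p = 0.0879).

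The later steps begin with GAPDH (chr12:6533927-6538374, plus strand), which oxidizes glyceraldehyde-3-phosphate and makes NADH. GAPDH was at 1828 and 1675 CPM in the Ctrl libraries and at 1992 and 2247 CPM in the shSTAU1 libraries. The groups did not overlap, but the shSTAU1 libraries differed from each other by more than the gap between the groups. Its log2 fold change was 0.27 (SE 0.13, 95% interval −0.02 to 0.57, adjusted p = 0.228), and 0.17 without shSTAU1 replicate 2.

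Phosphoglycerate kinase, PGK1 (chrX:77910739-78129296, plus strand), makes the first ATP of the pathway. It was at 472 and 386 CPM in the Ctrl libraries and at 564 and 511 CPM in the shSTAU1 libraries. The 2 Ctrl libraries stood farther apart (0.29 on the log2 scale, replicate 2 lower) than the nearest libraries of the 2 groups, and the log2 fold change of 0.33 (SE 0.14, 95% interval −0.01 to 0.66) had an adjusted p of 0.210 and was 0.19 without Ctrl replicate 2. Phosphoglycerate mutase, PGAM1 (chr10:97426160-97433441, plus strand), moves the phosphate group of phosphoglycerate. It was at 82.7 and 79.9 CPM in the Ctrl libraries and at 85.4 and 107.7 CPM in the shSTAU1 libraries. Only replicate 2 of shSTAU1 stood well above the Ctrl libraries, and the log2 fold change of 0.25 (SE 0.15, 95% interval −0.11 to 0.60, adjusted p = 0.349) was 0.06 without that library and 0.42 without shSTAU1 replicate 1.

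Enolase 1, ENO1 (chr1:8861000-8879250, minus strand), forms phosphoenolpyruvate. ENO1 was at 1864 and 1726 CPM in the Ctrl libraries and at 2249 and 2337 CPM in the shSTAU1 libraries. Here the libraries of each group were close together and the groups were well apart, with a log2 fold change of 0.35 (SE 0.12, 95% interval 0.08 to 0.63, unadjusted p = 0.0184, adjusted p = 0.125). Pyruvate kinase, PKM (chr15:72199029-72231822, minus strand), makes pyruvate and the last ATP and had the smallest p of the 9 enzymes tested. PKM was at 1660 and 1698 CPM in the Ctrl libraries and at 2401 and 2312 CPM in the shSTAU1 libraries. The shSTAU1 mean was 1.40 times the Ctrl mean, the replicates of either group were within 0.06 of each other on the log2 scale, and the log2 fold change was 0.49 (SE 0.11, 95% interval 0.22 to 0.76, unadjusted p = 0.00314, adjusted p = 0.0654). The counts are per gene, so the PKM1 and PKM2 splice forms cannot be told apart.

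**Figure D2:**
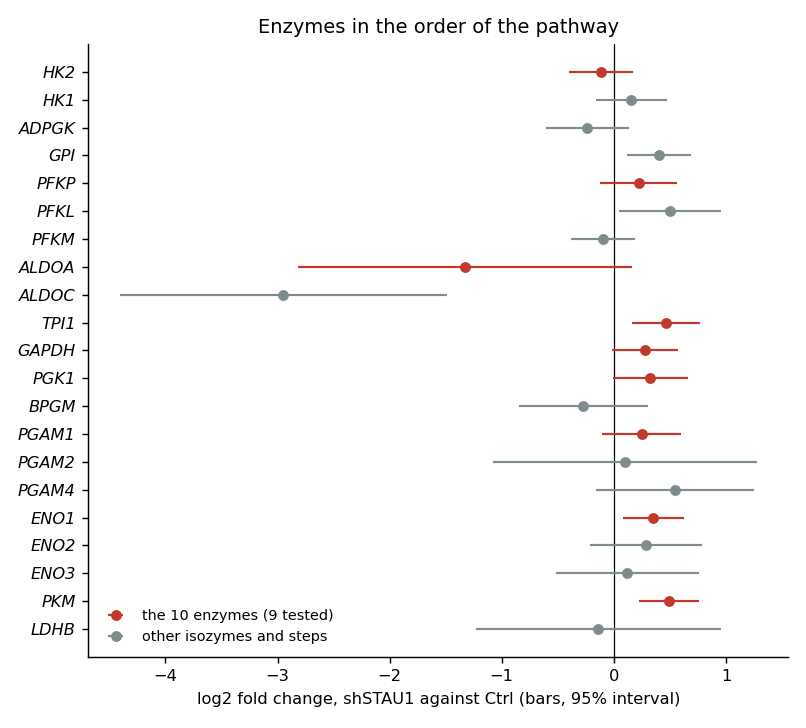
Log2 fold change of each tested enzyme, shSTAU1 against Ctrl, with its 95% interval (bars) from edgeR, in the order of the pathway from top to bottom. Red points are the 9 tested enzymes and grey points the other isozymes and steps; the intervals of TPI1, ENO1 and PKM lie above 0, and those of HK2, PFKP, ALDOA, GAPDH, PGK1 and PGAM1 reach across it.

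Summed over the 10 genes, the enzymes took 0.747% and 0.703% of all counts in the Ctrl libraries and 0.889% and 0.912% in the shSTAU1 libraries. The means were 0.725% ± 0.0309 and 0.900% ± 0.0163 (SD, n = 2 each), a difference of 0.176 percentage points that was several times the spread within either group. Most of this share was ENO1, PKM, GAPDH, TPI1 and PGK1. Levels are relative to the rest of the captured RNA of each library, and a change in RNA per cell cannot be told apart from a change in these genes.

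LDHA and ALDOA could not be followed in these counts. LDHA (chr11:18394388-18408425, plus strand), the lactate dehydrogenase subunit that prevails in most tumour cells, was listed at 1 and 2 reads in the Ctrl libraries and at 0 and 0 in the shSTAU1 libraries. All 4 values are within the 3 counts that a count of 0 allows (0.0849 to 0.0916 CPM, for counting error only), so LDHA was not tested and no fold was computed. ALDOA (chr16:30064164-30070457, plus strand), the aldolase of most tissues, was listed at 15 and 28 reads in the Ctrl libraries and at 8 and 10 in the shSTAU1 libraries. It passed the filter on low counts with these reads, and its log2 fold change of −1.33 had an SE of 0.64 (95% interval −2.82 to 0.16, adjusted p = 0.245) and was −0.79 without Ctrl replicate 2. Both genes were listed far below the enzymes next to them in the pathway.

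The low LDHA value was shared by its neighbours on the chromosome. HPS5 and GTF2H1, the latter encoding a subunit of the general transcription factor TFIIH that every cell needs, were listed at 0 in all 4 libraries, and their midpoints lie 94.0 and 49.7 kb before the start of LDHA. On the other side, LDHC had 11, 0, 2 and 1 reads and LDHAL6A had 2, 0, 0 and 0. These counts alone do not say whether the cells express LDHC or LDHAL6A. Farther out, SAAL1 had 1054 to 1511 reads, TSG101 1304 to 2486 and UEVLD 369 to 532, so reads were counted on both flanks. For ALDOA, 1657 of its 3916 exonic bases (42.3%) lie in exons of a second gene on the same strand, ENSG00000285043, which itself had 1, 1, 0 and 0 reads. Other genes listed at or near 0 were the reference gene TUBB and the HIF target MIF (0 in all 4 libraries) and SLC16A1, the lactate transporter MCT1 (0, 0, 0 and 1 reads). The cause of these low counts was not tested, and the values say nothing of how much LDHA or ALDOA the cells made.

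**Figure D3:**
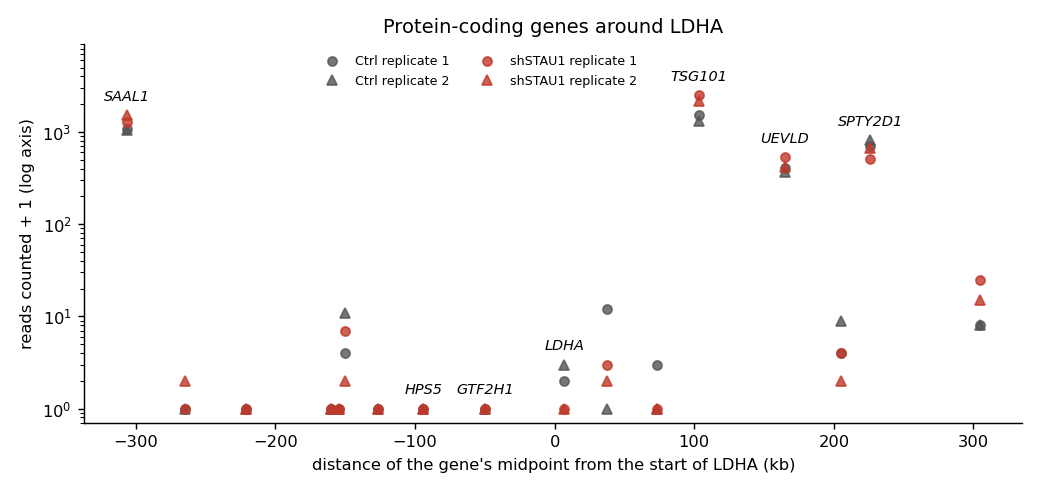
Reads counted plus 1 (log axis) for the protein-coding genes within 300 kb of LDHA, against the distance of each gene's midpoint from the start of LDHA in kb; circles are replicate 1 and triangles replicate 2, grey for Ctrl and red for shSTAU1. HPS5, GTF2H1 and LDHA lie at or near the bottom of the axis in every library, while SAAL1, TSG101, UEVLD and SPTY2D1 on the flanks have 369 reads or more.

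Several steps are catalysed by more than 1 isozyme, and the share of HK2 was lower, and that of PFKP higher, in both shSTAU1 libraries. Per coding length, HK2 took 27.5% and 28.8% of the reads of HK1 and HK2 together in the Ctrl libraries and 23.8% and 25.2% in the shSTAU1 libraries (28.1% ± 0.874 and 24.5% ± 0.964, SD, n = 2). The groups did not overlap, and HK1, the isozyme found in most tissues, was at 567 and 493 CPM in Ctrl and 628 and 553 CPM in shSTAU1 libraries (log2 fold change 0.16, adjusted p = 0.510). PFKP took 45.1% and 43.1% of the reads of PFKP, PFKL and PFKM in the Ctrl libraries and 47.0% and 46.3% in the shSTAU1 libraries (44.1% ± 1.39 and 46.6% ± 0.542). The log2 fold change of the liver-type PFKL was 0.50 (adjusted p = 0.171) and that of the muscle-type PFKM −0.09 (adjusted p = 0.669). ENO1 took 99.0% to 99.2% of enolase reads in every library, so ENO2 and ENO3 added little. ALDOC, the brain-type aldolase, was at 3.33 and 3.09 CPM in the Ctrl libraries and at 0.144 and 0.679 CPM in the shSTAU1 libraries (log2 fold change −2.95, SE 0.63, adjusted p = 0.0544). On these few reads ALDOA took 10.4% and 19.4% of the reads of ALDOA and ALDOC per coding length in the Ctrl libraries and 58.2% and 26.6% in the shSTAU1 libraries. LDHB, the other main lactate dehydrogenase subunit, was at 0.776 to 1.22 CPM in the 4 libraries. GPI, which links hexokinase to phosphofructokinase, was at 301 and 277 CPM in Ctrl and at 386 and 377 CPM in shSTAU1 libraries, with a log2 fold change of 0.40 (adjusted p = 0.101). Of the 20 genes listed as other isozymes and steps, 12 were tested and 0 passed the threshold in edgeR, with 2 higher and 1 lower at an unadjusted p of 0.05, where 24.5% of all genes tested were in either direction.

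**Figure D4:**
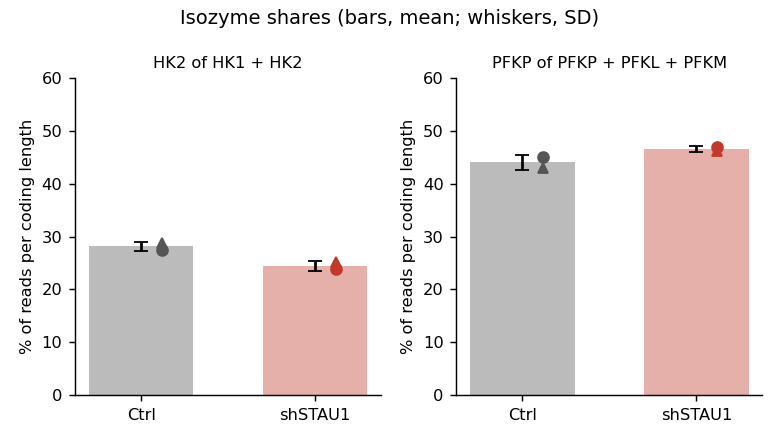
Percent of the reads per coding length that HK2 took of HK1 and HK2 (left) and that PFKP took of PFKP, PFKL and PFKM (right). Bars are the means of 2 libraries, whiskers the SD, circles replicate 1 and triangles replicate 2; the HK2 share is 28.1% in Ctrl and 24.5% in shSTAU1 libraries, and the PFKP share 44.1% and 46.6%.

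Processed pseudogenes can share reads with their parent genes. Copies of PGAM1 had 234 and 215 reads in the Ctrl libraries and 104 and 75 in the shSTAU1 libraries, or 7.76% and 7.59% against 3.38% and 1.93% of the reads of PGAM1 and its copies. The copies had fewer reads in both shSTAU1 libraries, whereas PGAM1 had more. The 4 copies tested had log2 fold changes from −1.77 (PGAM1P7, adjusted p = 0.0729) to −0.98 (PGAM1P6, adjusted p = 0.217). TPI1P1 had 799 and 683 reads in the Ctrl libraries and 1156 and 1226 in the shSTAU1 libraries, and its log2 fold change of 0.61 (adjusted p = 0.0769) had the sign of TPI1. Copies of LDHA held 144, 94, 157 and 191 reads, more than LDHA itself. With each enzyme summed with its copies, 0 enzymes passed the threshold in edgeR (2.6% of all genes did, and 3 enzymes had an unadjusted p under 0.05), and the log2 fold change of PGAM1 was 0.17. Whether these reads came from the copies or from the parent genes was not tested.

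Around glycolysis, the pentose phosphate pathway, which branches off at glucose-6-phosphate and makes NADPH and ribose, held 2 of the 4 listed genes that passed the threshold. Of its 8 tested genes 2 rose, where 1.13% of all genes did, and 0 fell, where 1.48% did (5 were higher and 1 lower at an unadjusted p of 0.05). The median log2 fold change of the list was 0.59, against 0.0059 over all genes tested. TKT, encoding the transketolase that returns sugars to glycolysis at GAPDH's substrate, was at 393 and 366 CPM in the Ctrl libraries and at 660 and 596 CPM in the shSTAU1 libraries (log2 fold change 0.73, SE 0.13, adjusted p = 0.0360). TALDO1, encoding transaldolase, was at 117 and 117 CPM against 181 and 178 CPM (log2 fold change 0.62, SE 0.12, adjusted p = 0.0458). The values of PGD (0.57, adjusted p = 0.0631) and of RPIA on the ribose side (−0.73, adjusted p = 0.0879), both picked after their values were seen, did not pass. The call of TKT was kept in 8 of 11 alternatives and that of TALDO1 in 6 of 11. Without Ctrl replicate 1 no gene of the table passed in edgeR, STAU1 included (1502 had an unadjusted p under 0.05), so the calls lost there say nothing of single genes, and the log2 fold changes were 0.78 for TKT and 0.62 for TALDO1. Without Ctrl replicate 2 they were 0.68 and 0.62 (adjusted p = 0.236 and 0.291). With no filter on low counts both calls were lost (0.0989 and 0.112), and that of TALDO1 also with library-size scaling (0.0548) and with a length and GC correction (0.0678). Some settings that kept both calls passed far more genes than the 2.6% above. Among these were DESeq2 (12.2%), a replicate block (28.6%) and the block with the length and GC correction (22.8%). The fits without shSTAU1 replicate 1 and without shSTAU1 replicate 2 were also among them. Their log2 fold changes were 0.66 and 0.79 for TKT and 0.62 and 0.62 for TALDO1. By limma-voom, where 2.54% of genes passed, both calls were kept.

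Few genes of the other lists passed the threshold. Of 14 genes of glucose and lactate transport, 8 were tested and 0 passed in edgeR (1 at an unadjusted p of 0.05, BSG, which carries lactate transporters to the membrane, at 0.43), and the glucose transporter SLC2A1 had a log2 fold change of −0.16. Of 18 tested genes of pyruvate entry and flux control, 0 passed and 2 were lower at an unadjusted p of 0.05, with a median of −0.05. Of these the dehydrogenase subunit DLD had a log2 fold change of 0.25 and the phosphatase PDP1 −0.23. Of 11 tested genes of gluconeogenesis and glycogen, 0 passed (2 higher and 2 lower at an unadjusted p of 0.05). Glycogen phosphorylase PYGL, with the highest count of the list, was at 344 and 199 CPM in Ctrl and at 507 and 266 CPM in shSTAU1 libraries. The groups overlapped, and its log2 fold change of 0.51 (SE 0.33) had an adjusted p of 0.377 in edgeR.

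On the branches that leave glycolysis, 1 of 9 tested genes passed in edgeR, where 2.6% of all genes tested did. At an unadjusted p of 0.05, 0 were higher and 3 lower, where 24.5% of all genes tested were in either direction. GFPT2, which draws fructose-6-phosphate into hexosamine synthesis, fell from 54.9 and 54.3 CPM to 28.9 and 31.2 CPM (log2 fold change −0.86, SE 0.14, adjusted p = 0.0358), whereas its more abundant relative GFPT1 had a log2 fold change of −0.18. PHGDH, which diverts 3-phosphoglycerate to serine, had one of −0.38 (adjusted p = 0.163). The GFPT2 call was kept in 8 of 11 alternatives, including DESeq2 and the replicate blocks, where 12.2% to 28.6% of genes passed. It was lost without Ctrl replicate 1, as every call was (log2 fold change −0.86), without Ctrl replicate 2 (−0.86, adjusted p = 0.162) and with no filter on low counts (adjusted p = 0.0989).

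HIF1 and MYC drive many of these genes, and no regulator in the list passed the threshold. HIF1A was at 503 and 417 CPM in the Ctrl libraries and at 517 and 473 CPM in the shSTAU1 libraries (log2 fold change 0.11, 95% interval −0.22 to 0.43, adjusted p = 0.674), and EPAS1, the related HIF2 subunit, had a log2 fold change of −0.26 (adjusted p = 0.277). Of 13 tested transcriptional regulators 0 passed in edgeR (1 higher and 1 lower at an unadjusted p of 0.05). Of 14 tested HIF targets outside glycolysis 0 passed (3 higher and 4 lower at an unadjusted p of 0.05, where 24.5% of all genes tested were in either direction), with a median of −0.0066 and values from −1.29 to 1.88. Among them the collagen lysyl hydroxylase PLOD2 had a log2 fold change of −0.57 (adjusted p = 0.0625), while NDRG1 was at 87.5 and 76.6 CPM in Ctrl and at 326 and 95.4 CPM in shSTAU1 libraries. The ends of that range were ANGPTL4 (6 to 52 reads) and CA9 (17 to 125 reads). Of the 14 HIF targets 7 were positive and 7 negative. Whether HIF1 or MYC had a part in the enzyme values was not tested.

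GAPDH and PGK1 are also common reference genes, and the rest of that list lay on the same side. All 13 tested reference genes had a positive log2 fold change, with a median of 0.33, which is the value of PGK1 itself. Of the 13, 12 had both shSTAU1 libraries above both Ctrl libraries (28.5% of all genes tested did, and GAPDH and PGK1 are among the 12). Of the 2226 genes with at least as many reads as PGAM1, 62.3% were positive and 42.7% had both shSTAU1 libraries above. Some reference genes had fewer reads than PGAM1, and B2M, among the 12, had 57 to 85 reads. HPRT1 rose from 122 and 108 CPM to 178 and 183 CPM (log2 fold change 0.65, SE 0.13, adjusted p = 0.0474). ACTB was at 10287 and 11255 CPM in Ctrl and at 13392 and 14994 CPM in shSTAU1 libraries (0.40, adjusted p = 0.104), and PPIA had a log2 fold change of 0.25. The HPRT1 call was kept in 6 of 11 alternatives, including DESeq2 and the replicate blocks, where 12.2% to 28.6% of genes passed. It was lost without Ctrl replicate 1, as every call was (log2 fold change 0.74), without Ctrl replicate 2 (0.57, adjusted p = 0.327), with no filter on low counts (0.120), with library-size scaling (0.0563) and with a length and GC correction (0.0667).

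**Figure D5:**
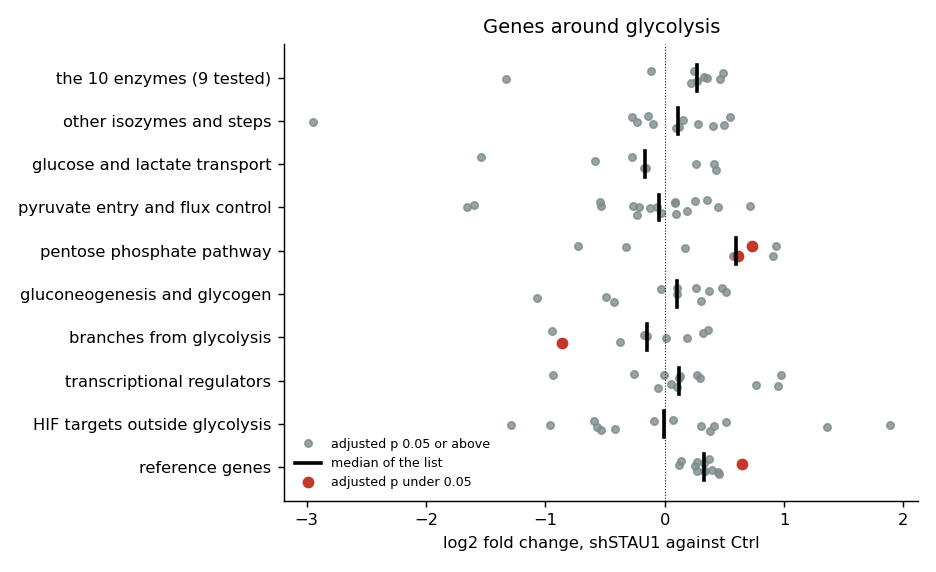
Log2 fold change (shSTAU1 against Ctrl) of every tested gene in the enzyme set and 9 lists around it, 1 point per gene, with vertical bars for the list medians and red points for genes with an adjusted p under 0.05. GAPDH and PGK1 are in both the enzyme set and the reference genes. The median of the enzymes (0.27) is the value of GAPDH, and that of the reference genes (0.33) is the value of PGK1. The median of the pentose phosphate pathway is 0.59, and the red points are TKT, TALDO1, GFPT2 and HPRT1.

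The profile of the 8 abundant enzymes over the 4 libraries was compared with that of every other tested gene. By Euclidean distance on log2(CPM + 0.5), centred per gene, the nearest were RPLP2 (0.0137) and RPS28 (0.0197), which encode ribosomal proteins, and PLXNC1 (0.0226), which encodes a plexin receptor. RPLP2 was at 289 and 269 CPM in the Ctrl libraries and at 338 and 343 CPM in the shSTAU1 libraries. With 4 libraries many genes have such a profile, and the likeness is a description only.

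Markers of other cell types were low. The summed level of 6 fibroblast markers was 17.3 and 22.6 CPM in the Ctrl libraries and 10.7 and 10.1 CPM in the shSTAU1 libraries, nearly all of it COL1A1 and COL1A2, while COL3A1, LUM and DCN had at most 1 read in any library. Leukocyte markers summed to at most 0.283 CPM. The squamous markers summed to 8330 and 7904 CPM in the Ctrl libraries and to 12260 and 9401 CPM in the shSTAU1 libraries. Of the 8, KRT5 and KRT14 had both shSTAU1 libraries above both Ctrl libraries, as 28.5% of all genes tested did, and the other 6 overlapped. The part of the marker values in the enzyme values was not tested.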

How the data were processed

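The authors deposited whole-number counts per gene for 4 libraries, without normalization. Total RNA (Trizol) had been made into libraries with the TruSeq RNA Exome kit, which captures exons. The submitters' processing notes name Partek and the build hg38; the aligner, the counter, its strand setting and the annotation release are not given in the sources used here. All sample columns were mapped (0 left over).

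Symbols, positions and coding lengths were taken from GENCODE 29 on GRCh38, which holds 58516 of the 67008 identifiers (8492 are not in it), and may differ from the authors' release. Counts were filtered with filterByExpr (14303 genes), scaled by TMM and compared with edgeR 4.0.16 (R 4.3.3) quasi-likelihood tests, with Benjamini-Hochberg adjustment over all genes tested and a threshold of 0.05. The dispersion corresponded to a biological coefficient of variation of 19.1%. On simulated data for this comparison (14303 genes, 200 changed), 77% of 2-fold and 98% of 4-fold changes were recovered, with 7 false calls among 182. The changed genes were drawn from those with more reads, the dispersion followed the gene's level alone, and the libraries were simulated as independent. Changes under 2-fold were not simulated, so the recovery says nothing of changes as small as those of the abundant enzymes. The replicates of either group did not hold the same counts within counting error (chi-square over genes), so none was treated as a repeat deposit of another. DESeq2 1.42.0, limma-voom (limma 3.58.1), library-size scaling, no filter, a length and GC correction, a replicate block, summed pseudogenes, an adjusted p of 0.10 and leaving out each library were tried as alternatives.

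Named besides the 10 enzymes and STAU1 were list genes past the threshold, otherwise the 2 of highest count in a list, the isozymes of each step and the 3 nearest profiles. One gene that this rule names is not reported here. The enzymes and lists were chosen with earlier results of these data known.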

Additional observations from a re-analysis of the deposited data

How the results depend on the processing

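The count of enzymes past the threshold was 0 and became 2 with DESeq2, 2 at an adjusted p of 0.10 (PKM and TPI1 in both, where 12.2% and 11.1% of all genes passed) and 0 to 4 on leaving out 1 library. Without shSTAU1 replicate 1 the 4 were GAPDH, ENO1, PKM and TPI1 (2780 of all genes passed, 18.5%), and without shSTAU1 replicate 2 the 1 was PKM (2203, 14.5%). The count over all genes, 372, became 1446 with DESeq2, 11 with no filter, 1585 at 0.10 and 0 to 2780 on leaving out 1 library. It was 0 (1502 at an unadjusted p of 0.05, edgeR) without Ctrl replicate 1 and 64 without Ctrl replicate 2. The 4 genes called in the lists around glycolysis became 17 with DESeq2, 0 with no filter and 0 to 32 on leaving out 1 library. STAU1 ranged from −2.60 to −2.58 on leaving out 1 library and from −2.64 to −2.56 over the other alternatives, and its adjusted p was 0.490 without Ctrl replicate 1, where 0 genes passed. The median log2 fold change of the enzymes, 0.27, was 0.22 with library-size scaling (which shifted the median of all genes by −0.0523), 0.19 with the length and GC correction and 0.22 to 0.37 on leaving out 1 library; the medians under alternatives were added after seeing the data. Without division by length the PFKP share was 41.9% in Ctrl and 44.6% in shSTAU1 libraries. With a replicate block 5 enzymes passed (GAPDH, ENO1, PKM, PGK1 and TPI1) with 4087 of all genes (28.6%) and 42 list genes. With the block and the length and GC correction 3 passed (PKM, PGK1 and TPI1). There 3257 of all genes (22.8%) and 35 list genes passed, and the median of the enzymes was 0.19. The 9 lists held 8 to 18 tested genes each. The share of list genes that passed was not compared with that of all genes under these alternatives. The counts of list genes therefore do not set the lists apart from all genes. The column headers give a Ctrl and a shSTAU1 library of the same replicate number a shared leading number. No label says that this number marks a batch. Deviations of same-numbered libraries correlated at 0.271 over 14303 genes and 0.587 over the 4791 with log2 CPM above 5, for 2 pairs only. Of 108 values of single enzymes under the alternatives, 15 passed the threshold and none changed sign. The cause of these changes was not tested. The 8 abundant enzymes had 2617 reads or more in every library, whereas ALDOA had at most 28 and LDHA at most 2, and few reads limit the precision of both.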
